A study of Homo sapiens with 12 samples.

Results

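In T47D breast cancer cells, the response of each gene to a synthetic progestin was compared between cells that had PRMT1 and cells depleted of it. The comparison is a difference of differences on the log2 scale, called the interaction here: the R5020 effect in PRMT1-depleted cells minus the R5020 effect in control cells. It used all 12 of the 12 libraries of the series, and 17727 of the 55765 genes listed had enough counts to be tested. T47D is a luminal, hormone-receptor-positive line; a control siRNA (siCT) or one that targets PRMT1 (siPRMT1) was given first, followed by either 10 nM R5020 or ethanol, its vehicle, for 6 h. The 6 h for ethanol is that of the treatment label; the sample titles call the ethanol groups T0 and the R5020 groups T6H. Each of the 4 groups (siCT ethanol, siCT R5020, siPRMT1 ethanol, siPRMT1 R5020) held 3 libraries, given by the labels as biological replicates. All cells were grown in medium with serum and insulin, and all groups come from a single cell line. An siRNA lowers a transcript without deleting the gene, so the depleted cells kept some PRMT1.

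The question in the study's design is whether progestin needs PRMT1 to change gene expression. Progesterone and R5020 bind the progesterone receptor, a transcription factor encoded by PGR, which moves to hormone response elements in chromatin, recruits coregulators and raises or lowers nearby genes within hours. PRMT1 is the main enzyme that places asymmetric dimethylarginine on proteins, among them histone H4, RNA-binding proteins and several transcriptional coregulators, and it is known as a coactivator of nuclear receptors. A positive interaction means that R5020 moved a gene further up, or less far down, in the depleted cells; a negative one means the reverse. The interaction is by arithmetic also the effect of depletion with R5020 minus the effect of depletion in ethanol, so the starting level in ethanol is given beside each value.

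PRMT1 mRNA stood at 45.4, 37.4 and 29.7 CPM (counts scaled to the library's size) in siCT ethanol and 40.7, 50.7 and 37.5 CPM in siCT R5020, in the order of replicates 1 to 3. In siPRMT1 cells it stood at 7.92, 8.38 and 8.38 CPM in ethanol and 6.98, 6.89 and 7.37 CPM with R5020, below every siCT library. Total counts ran from 26783525 to 34120937 per library. In siCT ethanol replicate 3 and siCT R5020 replicate 1, mitochondrially encoded genes took 59.3% and 52.4% of counts, against 31.3% to 38.3% in the other 10 libraries. The deviations of this pair from their group means ran together across 12782 genes (r = 0.924, a description), and results are given with and without the pair. Those of siCT ethanol replicates 1 and 2 also ran together with siCT R5020 replicates 2 and 3 (r = 0.772 and 0.797). Deviations from a mean of 3 libraries sum to 0, so these values are not independent of each other. The fit treats all libraries as independent. The biological coefficient of variation that edgeR gave for each group was 0.324 for siCT ethanol, 0.210 for siCT R5020, 0.0464 for siPRMT1 ethanol and 0.0752 for siPRMT1 R5020. Summed luminal markers (keratins, E-cadherin, ESR1, PGR and others, 9 genes) lay at 6488 to 10518 CPM in siCT and 11740 to 16220 CPM in siPRMT1 libraries. Basal and mesenchymal markers summed to 1.66 to 3.92 CPM in all libraries, with 6 of 10 under 1 CPM everywhere. Stromal and leukocyte markers summed to 78.3 to 130 CPM in siCT and 39.8 to 45.6 CPM in siPRMT1 libraries, and 11 of the 15 listed in the files were under 1 CPM everywhere. No marker was at 0 in every library. The part of marker levels and of the mitochondrial share in the results was not tested.

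For most genes no difference in the hormone response was called. At an adjusted p under 0.05 (edgeR's quasi-likelihood test, Benjamini-Hochberg over all genes tested), 14 of 17727 genes (0.079%) were called, 8 with a higher interaction (0.0451%) and 6 with a lower one (0.0338%). The 8 were PKP2, PCDH17, RASSF5, FAM43A, L3MBTL3, C14orf182, SRGAP1 and MTSS1, and the 6 were MYB, KITLG, ZBTB7C, SOX4, NXPH3 and AC093323.3. At an unadjusted p under 0.05 there were 720 genes (4.06%), 403 higher (2.27%) and 317 lower (1.79%). Under the same test R5020 changed 2308 genes in siCT cells (13%), with 1345 up (7.59%) and 963 down (5.43%). In siPRMT1 cells it changed 2725 (15.4%), with 1648 up (9.3%) and 1077 down (6.08%). Depletion raised 2407 genes (13.6%) and lowered 3399 (19.2%) in ethanol, 5806 in all (32.8%), and with R5020 it raised 2046 (11.5%) and lowered 2513 (14.2%), 4559 in all (25.7%). The median standard error of an interaction was 0.332 log2 units, and for 10077 genes (56.8%) the 95% interval lay within 1 log2 unit of no difference, so many smaller differences were not detectable with 3 libraries a group. With library totals alone in place of TMM scaling the median over all genes moved from 0.040 to -0.10, and 1 gene was called higher and 2 lower.

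The 14 calls rest on few libraries. All 14 genes kept their direction when any one of the 12 libraries was left out, and all 14 stayed called without siCT ethanol replicate 3. Without siCT ethanol replicate 1, 6 of the 14 stayed called, and without replicate 2 of that group 13 did. Without siCT R5020 replicate 1, 4 stayed called. None was called when siCT R5020 replicate 2 or 3 or any of the 6 siPRMT1 libraries was left out; the adjusted p of the 14 genes in those 8 fits ran from 0.0664 to 0.249, and 538 to 636 genes had an unadjusted p under 0.05. Without both siCT libraries that stand apart, by contrast, 140 genes were called (0.779%), 55 higher (0.306%) and 85 lower (0.473%), all 14 among them. Each of these 140 had the same sign over 12 libraries, and 121 had an unadjusted p under 0.05 there. All of these fits use part of the same 12 libraries, and the 14 genes were picked for large interactions. Neither the kept directions nor this agreement is independent support.

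**Figure D1:**
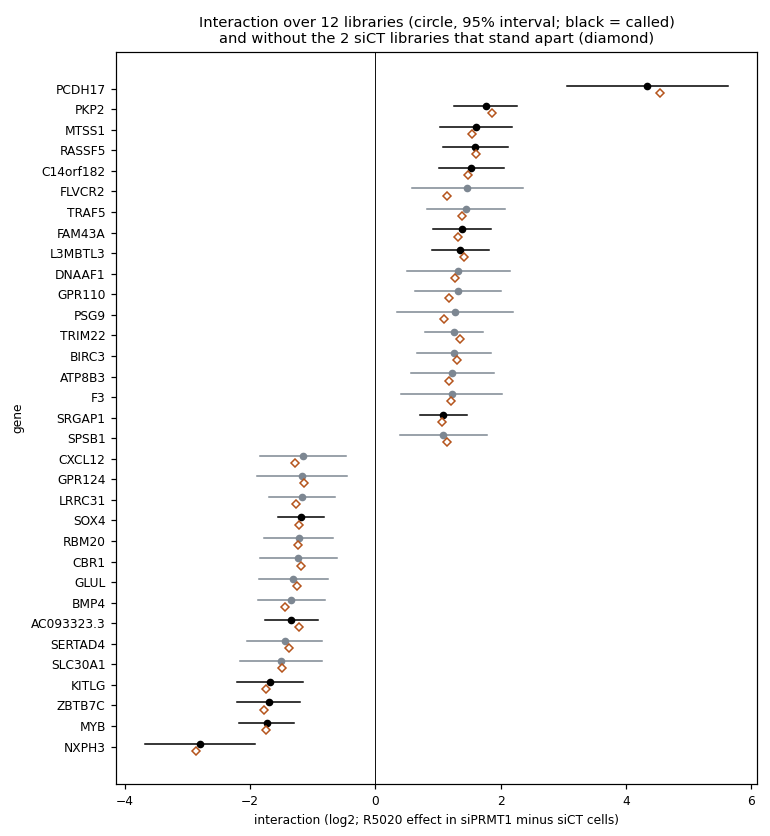
Interaction (log2, difference between the R5020 effects under siPRMT1 and under siCT) of the 14 genes called over 12 libraries (black) and of 19 further genes called without the pair of siCT libraries that stand apart (grey). Circles with lines are estimates over 12 libraries with their 95% intervals, and diamonds are the values over 10 libraries. The 10 libraries are part of the 12, and the grey genes were chosen for the same sign in both fits. That diamonds and circles share a side of 0 is therefore no independent support.

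Taken over all genes, the R5020 effects in siCT and in PRMT1-depleted cells ran together. The 2 R5020 effects share no library, and across the 17727 genes, which are not independent replicates, they correlated with Pearson's r = 0.840 (0.825 without the pair). Spearman's rho over 12 libraries was 0.747. The average of both R5020 effects was called for 4478 genes (25.3%), up in 2343 (13.2%) and down in 2135 (12%), and those with an average of at least 1 log2 unit were described further. Of these, 914 rose, with a median log2 change of 1.52 in siCT and 1.66 in siPRMT1 cells, and 913 of them had the same sign under both siRNAs. Their median interaction was 0.176 (quartiles -0.27 and 0.55) beside 0.040 over all genes. Of the 914, 60.0% rose further in siPRMT1 cells, where 56% of all genes had an interaction above 0. Among them 3 were called higher and 4 lower (0.0451% and 0.0338% of all genes), and 120 and 82 passed the unadjusted threshold (2.27% and 1.79% of all genes). A total of 586 genes fell, with medians of -1.32 in siCT and -1.39 in siPRMT1 cells, all with the same sign under both siRNAs, and a median interaction of -0.089. Of the 586, 57.8% fell further in siPRMT1 cells, where 44% of all genes had an interaction below 0. Among the 586, 1 was called higher and 2 lower (0.0451% and 0.0338% of all genes), and 12 and 49 passed the unadjusted threshold (2.27% and 1.79%). The median of the genes that rose was 0.0056 without siCT ethanol replicate 3 and 0.047 with library totals alone, and it was 0.136 without the pair. Taken in the direction of the fall, the median of the genes that fell (0.089) was -0.058 without siCT ethanol replicate 1, -0.019 without siCT ethanol replicate 2 and -0.14 without siCT R5020 replicate 1, and it was 0.23 with library totals alone. Since the siCT groups had the larger spread, choosing genes on the average is not fully independent of the interaction. Choosing on a large average of both effects also makes a shared sign likely. The counts with the same sign under both siRNAs are therefore no test of a shared response.

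**Figure D2:**
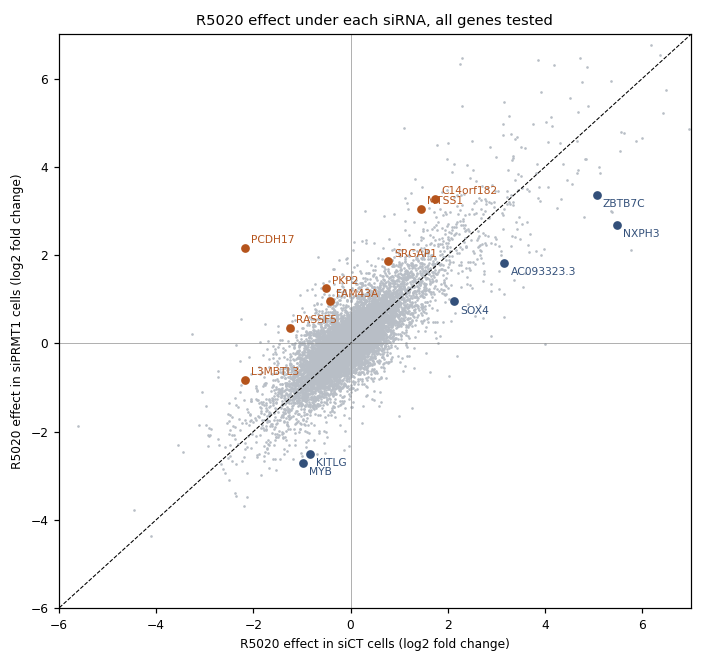
R5020 effect of the 17727 genes tested in siCT cells (x axis) and in siPRMT1 cells (y axis), both as log2 fold change. The axes are cut, so genes with effects beyond them are not drawn. The dashed line marks equal effects. Coloured and named points are the 14 genes called in the interaction, 8 above the line (orange) and 6 below it (blue), while the bulk of genes lies along it (r = 0.840 across genes).

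MYB and KITLG were repressed by R5020, and their fall was deeper in depleted cells. MYB encodes a transcription factor of blood progenitors that is also active in estrogen-receptor-positive breast cells. In siCT cells MYB stood at 4.47, 4.63 and 4.10 CPM in ethanol and 2.06, 2.45 and 2.16 CPM with R5020. In siPRMT1 cells MYB stood at 13.6, 14.5 and 14.5 CPM in ethanol and 2.23, 2.11 and 2.11 CPM with R5020. The depleted cells started above every siCT library and ended among the siCT R5020 libraries. R5020 lowered MYB 1.98-fold in siCT cells (log2 -0.98 ± 0.15 SE) and 6.58-fold in siPRMT1 cells (log2 -2.72 ± 0.15), an interaction of -1.73 ± 0.21 (95% interval -2.18 to -1.29, adjusted p = 0.0203). Depletion raised MYB by 1.68 log2 units in ethanol (adjusted p = 1.10e-05), and with R5020 the difference was -0.051 (adjusted p = 0.828).

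KITLG encodes stem cell factor, the ligand of the receptor tyrosine kinase KIT. In siCT cells the level of KITLG was 10.8, 17.5 and 15.5 CPM in ethanol, and with R5020 it was 7.91, 7.55 and 9.09 CPM. In siPRMT1 cells the level was 33.5, 34.9 and 38.9 CPM in ethanol, and with R5020 it was 5.85, 6.23 and 6.71 CPM. Its ethanol level in depleted cells was above all siCT libraries, and its level with R5020 was below all of them. The fall was 1.78-fold in siCT and 5.71-fold in siPRMT1 cells, an interaction of -1.68 ± 0.25 (95% interval -2.21 to -1.15, adjusted p = 0.0249). Without the pair the interaction was -1.74 for KITLG (adjusted p = 0.0115) and -1.74 for MYB (adjusted p = 0.00201). With one library left out at a time, the adjusted p of MYB ran from 0.00710 to 0.111 and that of KITLG from 0.0120 to 0.136.

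In depleted cells 4 induced genes rose less on the log2 scale. ZBTB7C, which encodes a zinc finger transcription factor of the BTB family, stood at 0.654, 0.501 and 0.547 CPM in siCT ethanol and 16.3, 21.6 and 19.9 CPM in siCT R5020. In siPRMT1 cells ZBTB7C stood at 3.14, 3.25 and 3.18 CPM in ethanol and 34.9, 32.0 and 32.0 CPM with R5020, higher than in siCT cells in either treatment. Its rise was 33.5-fold in siCT and 10.3-fold in siPRMT1 cells, an interaction of -1.70 ± 0.23 (95% interval -2.20 to -1.19, adjusted p = 0.0243). The order depends on the scale here: on the CPM scale ZBTB7C gained 18.7 in siCT cells and 29.8 in siPRMT1 cells, so the gain was larger in depleted cells. The other 13 called genes had the same sign on both scales.

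SOX4, an HMG-box transcription factor of progenitor cells, stood at 19.8, 20.8 and 19.1 CPM in siCT ethanol and 79.2, 88.6 and 93.1 CPM in siCT R5020. In siPRMT1 cells SOX4 stood at 28.8, 28.9 and 29.1 CPM in ethanol, above every siCT ethanol library, and 53.4, 57.2 and 56.9 CPM with R5020, below every siCT R5020 library. It rose 4.37-fold in siCT and 1.93-fold in siPRMT1 cells, an interaction of -1.18 ± 0.17 (95% interval -1.55 to -0.82, adjusted p = 0.0249). Depletion changed its level by 0.54 in ethanol (adjusted p = 0.00519) and by -0.64 with R5020 (adjusted p = 0.00241).

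NXPH3 encodes neurexophilin 3, a secreted ligand of neurexins. It was near the limit of counting in siCT ethanol, with 11 counts over 3 libraries (0.0818, 0.147 and 0.164 CPM), and had 6.34, 5.60 and 5.37 CPM in siCT R5020. In siPRMT1 cells NXPH3 stood at 0.764, 0.532 and 0.571 CPM in ethanol (69 counts) and 4.23, 3.24 and 4.63 CPM with R5020. The interaction was -2.80 ± 0.40 (95% interval -3.67 to -1.92, adjusted p = 0.0249), and its size leans on the low siCT ethanol counts. AC093323.3, known here only by its clone name, stood at 20.3, 23.2 and 17.9 CPM in siCT ethanol and 193, 168 and 188 CPM in siCT R5020, against 45.0, 43.4 and 47.6 and 153, 167 and 161 CPM in siPRMT1 cells. Its rise was 8.96-fold and 3.54-fold, an interaction of -1.34 ± 0.19 (95% interval -1.76 to -0.92, adjusted p = 0.0249). Without the pair these interactions were -1.78 for ZBTB7C, -1.22 for SOX4, -2.86 for NXPH3 and -1.21 for AC093323.3 (adjusted p = 0.00270, 9.84e-04, 0.0151 and 0.00217). With one library left out at a time the highest adjusted p was 0.119 for ZBTB7C, 0.137 for SOX4, 0.121 for NXPH3 and 0.148 for AC093323.3.

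**Figure D3:**
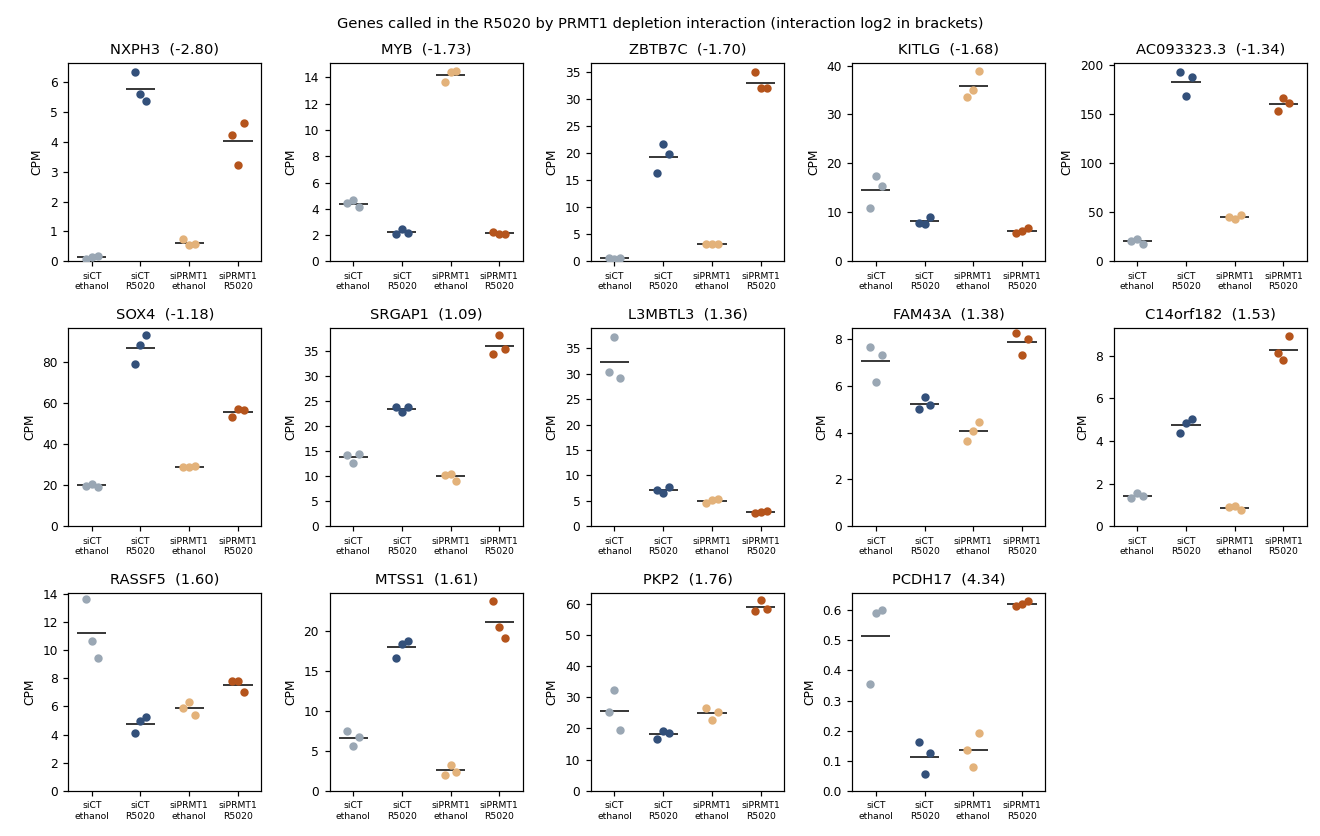
Level of each of the 14 called genes in CPM (y axis, linear, from 0) in every library of the 4 groups (x axis); points are libraries, in the order of replicates 1 to 3, and bars are group means. MYB and KITLG start high in siPRMT1 ethanol and end low, and PKP2 rises above the other groups only in siPRMT1 R5020.

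In 4 genes the fitted direction of the R5020 effect was opposite under the 2 siRNAs. PKP2 encodes plakophilin 2, a plaque protein that ties desmosomal cadherins to intermediate filaments. In siCT cells the level of PKP2 was 25.4, 32.2 and 19.6 CPM in ethanol, and with R5020 it was 16.6, 19.1 and 18.6 CPM. In siPRMT1 cells PKP2 stood at 26.6, 22.6 and 25.3 CPM in ethanol, within the siCT range, and 57.6, 61.4 and 58.3 CPM with R5020, above every other library. R5020 raised PKP2 2.38-fold in depleted cells (adjusted p = 1.42e-04), whereas in siCT cells its log2 change was -0.51 ± 0.17 and not called (adjusted p = 0.0634). The interaction was 1.76 ± 0.24 (95% interval 1.25 to 2.27, adjusted p = 0.0243).

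RASSF5, a Ras-binding protein of the Ras association family, stood at 13.6, 10.7 and 9.46 CPM in siCT ethanol and 4.08, 4.96 and 5.25 CPM in siCT R5020. In siPRMT1 cells RASSF5 stood at 5.90, 6.33 and 5.41 CPM in ethanol and 7.79, 7.80 and 7.03 CPM with R5020. R5020 lowered it 2.36-fold in siCT cells, while in siPRMT1 cells the log2 change was 0.36 ± 0.17 and not called (adjusted p = 0.206). The interaction was 1.60 ± 0.24 (95% interval 1.08 to 2.12, adjusted p = 0.0280). The effect of depletion on RASSF5 changed sign, from -0.94 in ethanol (adjusted p = 0.00155) to 0.66 with R5020 (adjusted p = 0.0144).

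FAM43A stood at 7.69, 6.19 and 7.33 CPM in siCT ethanol and 5.01, 5.54 and 5.18 CPM in siCT R5020. In siPRMT1 cells FAM43A stood at 3.66, 4.07 and 4.46 CPM in ethanol and 8.27, 7.32 and 8.03 CPM with R5020. It rose 1.94-fold in depleted cells, the change in siCT cells was not called (log2 -0.43 ± 0.15, adjusted p = 0.0847), and the interaction was 1.38 ± 0.21 (95% interval 0.92 to 1.84, adjusted p = 0.0333). PCDH17, a protocadherin, gave the highest interaction of the 14, 4.34 ± 0.59 (95% interval 3.06 to 5.62, adjusted p = 0.0243), from few counts: over 3 libraries each, siCT cells gave 44 without and 10 with R5020, and siPRMT1 cells gave 15 without and 56 with it. Its levels were 0.354, 0.590 and 0.601 CPM, 0.161, 0.0551 and 0.1249 CPM, 0.137, 0.0798 and 0.190 CPM and 0.614, 0.619 and 0.630 CPM in the same order of groups. It was called as a fall in siCT cells (adjusted p = 0.00405) and as a rise in siPRMT1 cells (adjusted p = 0.00159). Without the pair the interactions were 1.86 for PKP2, 1.61 for RASSF5, 1.33 for FAM43A and 4.54 for PCDH17 (adjusted p = 6.61e-04, 0.00410, 0.0112 and 0.00847).

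In depleted cells 3 induced genes started lower and rose further. MTSS1, a membrane-bending protein that links the plasma membrane to actin, stood at 7.41, 5.63 and 6.67 CPM in siCT ethanol and 16.6, 18.4 and 18.7 CPM in siCT R5020. In siPRMT1 cells MTSS1 stood at 1.97, 3.27 and 2.37 CPM in ethanol, below every siCT library, and 23.7, 20.4 and 19.1 CPM with R5020, above every siCT library. Its rise was 2.72-fold in siCT and 8.30-fold in siPRMT1 cells, an interaction of 1.61 ± 0.26 (95% interval 1.04 to 2.17, adjusted p = 0.0447). With R5020 present the log2 difference between the siRNAs was 0.23 ± 0.18 and not called (adjusted p = 0.350).

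SRGAP1, a GTPase-activating protein downstream of Slit and Robo, stood at 14.3, 12.7 and 14.3 CPM in siCT ethanol and 23.8, 22.8 and 23.8 CPM in siCT R5020. In siPRMT1 cells SRGAP1 stood at 10.3, 10.5 and 8.95 CPM in ethanol and 34.4, 38.2 and 35.3 CPM with R5020. It rose 1.71-fold and 3.63-fold, an interaction of 1.09 ± 0.18 (95% interval 0.71 to 1.47, adjusted p = 0.0435). C14orf182, listed by RefSeq as the long noncoding RNA LINC01588, stood at 1.31, 1.53 and 1.42 CPM in siCT ethanol and 4.36, 4.83 and 5.03 CPM in siCT R5020, against 0.901, 0.931 and 0.735 and 8.14, 7.80 and 8.92 CPM in siPRMT1 cells. Its groups were in the same order as those of MTSS1 and SRGAP1, lowest in siPRMT1 ethanol and highest in siPRMT1 R5020, with an interaction of 1.53 ± 0.24 (95% interval 1.01 to 2.05, adjusted p = 0.0345).

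L3MBTL3, which encodes a reader of methylated lysine with malignant brain tumor repeats, fell under both siRNAs but less in depleted cells. In siCT cells L3MBTL3 stood at 30.3, 37.3 and 29.1 CPM in ethanol and 7.06, 6.56 and 7.71 CPM with R5020. In siPRMT1 cells L3MBTL3 stood at 4.56, 5.22 and 5.25 CPM in ethanol, already below the siCT R5020 libraries, and 2.65, 2.77 and 3.06 CPM with R5020. It fell 4.54-fold in siCT and 1.77-fold in siPRMT1 cells, an interaction of 1.36 ± 0.21 (95% interval 0.90 to 1.82, adjusted p = 0.0345). Without the pair the interactions were 1.55 for MTSS1, 1.07 for SRGAP1, 1.48 for C14orf182 and 1.42 for L3MBTL3 (adjusted p = 0.0212, 0.00865, 0.0131 and 0.00865). Of the 8 genes with a higher interaction, the highest adjusted p with one library left out ran from 0.111 for PKP2 to 0.249 for SRGAP1.

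The starting levels of the called genes are set beside their interactions here. In ethanol, depletion raised all 6 genes with a lower interaction, from 0.54 log2 units for SOX4 to 2.47 for ZBTB7C. In ethanol it also lowered 7 of the 8 genes with a higher interaction, from -0.47 for SRGAP1 to -2.69 for L3MBTL3, and PKP2 stood at -0.053 (adjusted p = 0.828). Each of these 13 changes was called, where over all genes 13.6% were called raised and 19.2% lowered in ethanol. With R5020 present, depletion left 5 of the 14 without a called difference: MYB, KITLG, NXPH3, AC093323.3 and MTSS1. Over all genes 11.5% were called raised and 14.2% lowered with R5020. SOX4 changed sign to a called decrease, PKP2 gained a called increase, and RASSF5, FAM43A, C14orf182, SRGAP1 and PCDH17 changed sign to a called increase. ZBTB7C stayed raised (0.77) and L3MBTL3 stayed lowered (-1.33). The interaction is by arithmetic the effect of depletion with R5020 minus that in ethanol. Genes picked for a large interaction thus tend to have ethanol effects of the opposite sign. These values share the siPRMT1 ethanol and siCT ethanol libraries with the interaction and are no independent support for it.

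**Figure D4:**
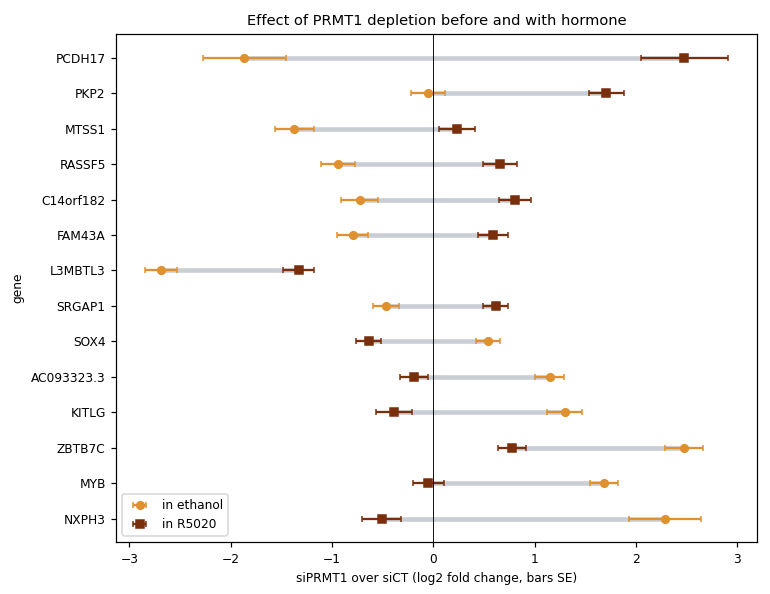
Effect of PRMT1 depletion (siPRMT1 over siCT, log2 fold change) on the 14 called genes in ethanol (circles) and with R5020 (squares); bars are standard errors and the grey line between the points is the interaction. In ethanol the 6 genes with a lower interaction lie above 0 and 7 of the other 8 lie below it. With R5020, MYB, AC093323.3 and MTSS1 lie near 0, and KITLG lies at -0.39, which was not called.

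RefSeq promoter windows (GRCh38.p14, 250 bases before each annotated start, and not the hg19 build of the counts) were matched by symbol for 9 of the 14 called genes, with 14 windows in all. The windows shown belong to MYB and KITLG, the genes whose fall was deeper, and to PCDH17, RASSF5 and L3MBTL3, the genes whose windows hold a receptor hexamer. Capitals mark AGAACA or its reverse complement TGTTCT, the hexamer found in progesterone and glucocorticoid receptor elements, searched on both strands. Coordinates and strands are chr6:135181058-135181307 (+) for MYB, chr12:88580472-88580721 (-) for KITLG, chr13:57631494-57631743 (+) for PCDH17, chr1:206556914-206557163 (+) for the downstream start of RASSF5 and chr6:130018331-130018580 (+) for the first start of L3MBTL3. Each is read 5′ to 3′ on the gene's strand.
MYB: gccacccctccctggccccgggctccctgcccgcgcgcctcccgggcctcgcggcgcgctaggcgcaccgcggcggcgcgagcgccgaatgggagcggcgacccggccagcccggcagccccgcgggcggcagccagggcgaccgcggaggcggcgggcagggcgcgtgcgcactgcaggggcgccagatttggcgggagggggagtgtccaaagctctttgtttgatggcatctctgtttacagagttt
KITLG: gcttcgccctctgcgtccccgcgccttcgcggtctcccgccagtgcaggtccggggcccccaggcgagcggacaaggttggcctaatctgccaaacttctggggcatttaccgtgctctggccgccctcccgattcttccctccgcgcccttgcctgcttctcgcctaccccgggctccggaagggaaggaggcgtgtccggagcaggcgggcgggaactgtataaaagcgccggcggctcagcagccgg
PCDH17: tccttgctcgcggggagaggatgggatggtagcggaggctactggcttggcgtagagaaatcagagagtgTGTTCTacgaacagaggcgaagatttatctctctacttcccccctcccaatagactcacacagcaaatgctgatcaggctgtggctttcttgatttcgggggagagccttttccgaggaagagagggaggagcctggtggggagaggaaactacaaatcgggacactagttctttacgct
RASSF5: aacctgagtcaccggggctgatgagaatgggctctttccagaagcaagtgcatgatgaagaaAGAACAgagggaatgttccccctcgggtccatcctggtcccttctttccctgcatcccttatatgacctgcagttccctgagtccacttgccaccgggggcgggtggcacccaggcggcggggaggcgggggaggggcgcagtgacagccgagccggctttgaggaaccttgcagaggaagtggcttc
L3MBTL3: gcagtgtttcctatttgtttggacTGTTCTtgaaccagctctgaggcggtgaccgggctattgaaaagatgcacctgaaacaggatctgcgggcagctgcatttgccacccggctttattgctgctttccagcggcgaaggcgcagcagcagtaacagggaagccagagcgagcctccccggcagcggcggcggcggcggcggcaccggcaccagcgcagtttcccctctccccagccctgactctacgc
The hexamer was found in 3 of the 14 windows, beside 12.39% of 35116 windows of the same length over all genes. No letters of this motif were found in the MYB and KITLG windows or in those of ZBTB7C, SOX4, FAM43A and SRGAP1. A match of a short motif is a description of these letters and says nothing about binding.

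Without the pair of siCT libraries, 126 further genes were called, and 19 of those with the highest or lowest values that also passed an unadjusted p under 0.05 over 12 libraries, with a mean of at least 5 CPM, are described by their 12-library values. None of these 19 was called over 12 libraries. From here on, ± is the SD over 3 libraries after a CPM value and the SE after an interaction, and values marked 10 libraries are those without the pair. Among the lower ones, R5020 raised SLC30A1, the zinc exporter of the plasma membrane, from 8.30 ± 2.42 to 19.1 ± 5.15 CPM in siCT cells (SD, n = 3). In siPRMT1 cells SLC30A1 started at 25.8 ± 0.0421 CPM and stood at 21.1 ± 2.15 CPM with R5020, with no called change (interaction -1.500 ± 0.30, adjusted p = 0.133; 10 libraries -1.496, adjusted p = 0.00405). GLUL, glutamine synthetase, rose from 199.5 ± 40.4 to 1319.6 ± 154 CPM in siCT and from 286 ± 6.94 to 763 ± 9.67 CPM in siPRMT1 cells (interaction -1.31 ± 0.25, adjusted p = 0.110; 10 libraries -1.25, adjusted p = 4.74e-04). CBR1, a carbonyl reductase, rose 3.26-fold in siCT cells and was not called in siPRMT1 cells (log2 0.47 ± 0.20, adjusted p = 0.150). The interaction of CBR1 was -1.23 ± 0.28 (adjusted p = 0.258; 10 libraries adjusted p = 0.00394).

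LRRC31 and GPR124, an adhesion G protein-coupled receptor, rose under both siRNAs and less on the log2 scale in depleted cells. The log2 changes were 2.74 and 1.56 for LRRC31 and 4.25 and 3.07 for GPR124. On the CPM scale LRRC31 gained 10.6 in siCT and 11.4 in siPRMT1 cells, so its order was reversed. BMP4, a ligand of the bone morphogenetic protein family, fell from 27.6 ± 6.21 to 17.6 ± 1.81 CPM in siCT and from 41.6 ± 1.80 to 10.5 ± 1.48 CPM in siPRMT1 cells (interaction -1.34 ± 0.25, adjusted p = 0.101; 10 libraries -1.44, adjusted p = 0.0133). SERTAD4 fell 2.27-fold in siCT and 6.19-fold in siPRMT1 cells, a pattern of higher start and deeper fall like that of MYB and KITLG. RBM20, a splicing regulator, fell in siPRMT1 cells only by the calls made (log2 -1.62, adjusted p = 2.94e-05; siCT log2 -0.40, adjusted p = 0.189). The chemokine CXCL12 moved from 72.3 ± 26.4 to 85.1 ± 20.003 CPM in siCT cells, which was not called, and fell from 137 ± 2.72 to 72.6 ± 3.04 CPM in siPRMT1 cells (interaction -1.15 ± 0.32, adjusted p = 0.455; 10 libraries -1.28, adjusted p = 4.74e-04). The interactions of these 4 others were -1.45 ± 0.28 for SERTAD4, -1.22 ± 0.26 for RBM20, -1.17 ± 0.24 for LRRC31 and -1.17 ± 0.33 for GPR124.

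Among the higher ones, TRAF5, an adaptor of tumor necrosis factor receptors, rose from 31.3 ± 9.57 to 67.9 ± 15.8 CPM in siCT and from 22.9 ± 0.649 to 136 ± 4.95 CPM in siPRMT1 cells (interaction 1.45 ± 0.29, adjusted p = 0.129; 10 libraries 1.38, adjusted p = 4.74e-04). BIRC3, an inhibitor of apoptosis protein in the same receptor pathway, rose 1.81-fold and 4.32-fold (interaction 1.25 ± 0.27, adjusted p = 0.189; 10 libraries adjusted p = 0.0181). TRIM22, an interferon-inducible ubiquitin ligase, rose 10.7-fold from 5.06 ± 0.384 CPM in siCT cells and 25.5-fold from 1.37 ± 0.222 CPM in siPRMT1 cells, yet ended lower in the depleted cells (35.0 ± 1.75 against 54.0 ± 6.12 CPM). Its interaction was 1.26 ± 0.22 (adjusted p = 0.0643; 10 libraries adjusted p = 0.00838), and on the CPM scale its gain was smaller in depleted cells (33.6 against 48.9). F3, tissue factor, reached 35.7 ± 11.8 CPM in siCT and 36.1 ± 0.936 CPM in siPRMT1 cells from 2.72 ± 1.07 and 1.14 ± 0.0962 CPM, an interaction of 1.22 ± 0.37; its siRNA groups overlapped with R5020 and did not overlap in ethanol. ATP8B3 and SPSB1 had the same pattern, a lower start and a larger rise, with interactions of 1.23 ± 0.31 and 1.08 ± 0.32. FLVCR2, GPR110 and DNAAF1, a dynein assembly factor, rose in siPRMT1 cells (log2 1.30, 1.04 and 1.44, each called) with no called change in siCT cells (log2 -0.17, -0.28 and 0.12). PSG9, a pregnancy-specific glycoprotein, was called under neither siRNA (log2 -0.59 and 0.68).

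Over the 140 genes called in 10 libraries, 38 of the 85 with a lower interaction rose under both siRNAs, 20 fell under both, 11 fell only in siPRMT1 cells by the calls made, 9 rose only in siCT cells and 7 rose in siCT and fell in siPRMT1 cells. Of the 55 with a higher interaction, 28 rose under both, 16 rose only in siPRMT1 cells, 4 fell under both, 4 fell only in siCT cells and 3 fell in siCT and rose in siPRMT1 cells. On the CPM scale 130 of the 140 had the same sign of difference as on the log2 scale.

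Gene lists were described by their counts and medians beside all genes; they were compiled with earlier results of these data known, so a called member is no independent sign about its list. Of all genes, 56% had an interaction above 0 and 44% below it over 12 libraries, 57.1% and 42.9% without the pair, and 33.1% and 66.9% with library totals alone. The unadjusted threshold was passed by 2.27% higher and 1.79% lower over 12 libraries, by 4.65% and 3.79% without the pair, and by 1.05% and 2.03% with library totals alone. The progestin targets, genes that progestins are known to induce or repress in breast cells, had 34 members tested, with 0 called higher and 1 lower (ZBTB7C), against 0.0451% and 0.0338% of all genes. Past the unadjusted threshold were 6 higher and 9 lower, against 2.27% and 1.79% of all genes, and the median interaction was -0.15 beside 0.040 over all genes. Without the pair 2 were called higher and 6 lower, against 0.306% and 0.473% of all genes. SGK1, a kinase induced by progestins and glucocorticoids, rose from 0.436, 0.383 and 0.656 to 49.2, 38.3 and 39.7 CPM in siCT and from 0.464, 0.452 and 0.490 to 25.4, 25.9 and 24.8 CPM in siPRMT1 cells. The groups with R5020 did not overlap, but its interaction of -0.74 ± 0.29 was not called (adjusted p = 0.963; 10 libraries -0.81, adjusted p = 0.330). ERRFI1, a feedback inhibitor of the epidermal growth factor receptor, rose 4.42-fold in siCT and 2.01-fold in siPRMT1 cells (interaction -1.14 ± 0.20, adjusted p = 0.0875; 10 libraries -1.04, adjusted p = 0.00217). CDKN1C, which encodes the cyclin-dependent kinase inhibitor p57, rose 8.27-fold and 3.12-fold to nearly the same level (4.50 ± 0.377 and 4.92 ± 0.186 CPM) from unequal starts of 0.523 ± 0.136 and 1.58 ± 0.209 CPM (interaction -1.41 ± 0.28, adjusted p = 0.133; 10 libraries adjusted p = 0.0339).

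The receptor genes PGR and ESR1 fell with R5020 under both siRNAs, and none of the 22 steroid receptor and coregulator genes tested was called (4 lower and 0 higher past the unadjusted threshold, against 1.79% and 2.27% of all genes; 4 called lower and 0 higher without the pair, against 0.473% and 0.306%). PGR stood at 488, 655 and 407 CPM in siCT ethanol and 134, 183 and 191 CPM in siCT R5020. In siPRMT1 cells PGR stood at 1106, 1134 and 1147 CPM in ethanol and 278, 282 and 265 CPM with R5020, so the depleted cells held more of the receptor's mRNA before and after hormone. The fall was 3.06-fold and 4.10-fold, and the interaction of -0.43 ± 0.28 was not called (95% interval -1.03 to 0.18, adjusted p = 1.000). ESR1, the estrogen receptor alpha gene, fell 1.68-fold from 77.8 ± 6.55 CPM in siCT and 2.65-fold from 176 ± 3.65 CPM in siPRMT1 cells. Its interaction was -0.65 ± 0.18 (adjusted p = 0.434; 10 libraries -0.64, adjusted p = 0.0459). FOXA1, the pioneer factor of the luminal lineage, fell 2.25-fold and 3.85-fold (interaction -0.77 ± 0.26, adjusted p = 0.714; 10 libraries adjusted p = 0.0125), and TFAP2C, an AP-2 family factor, had log2 changes of -0.25, not called, and -0.88, called (interaction -0.63 ± 0.18, adjusted p = 0.498; 10 libraries adjusted p = 0.0269). PRMT1 itself had an interaction of -0.41 ± 0.24 (adjusted p = 1.000), and none of the 16 tested genes of arginine methylation passed even the unadjusted threshold over 12 libraries (1 lower and 0 higher without the pair, against 3.79% and 4.65% of all genes).

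Of 23 luminal lineage genes, 2 were called lower (MYB and SOX4), 8 were lower past the unadjusted threshold and 0 were higher, against 1.79% and 2.27% of all genes. The list's median was -0.27 beside 0.040 over all genes (-0.15 beside 0.042 without the pair, -0.39 beside -0.10 with library totals alone). Without the pair 6 were called lower and 0 higher, against 0.473% and 0.306% of all genes, and library totals alone left 0 called. RUNX1, a core-binding transcription factor, rose 5.45-fold from 21.8 ± 3.45 CPM and 3.16-fold from 37.3 ± 0.899 CPM to levels that overlapped, 119 ± 10.98 and 118 ± 9.54 CPM (interaction -0.79 ± 0.21, adjusted p = 0.393; 10 libraries adjusted p = 0.0211). Of 27 estrogen response genes, 1 was called lower (MYB), and 5 lower and 0 higher passed the unadjusted threshold, against 1.79% and 2.27% of all genes, with a median of -0.16 beside 0.040. Without the pair 3 of the 27 were called lower and 0 higher (0.473% and 0.306% of all genes), 10 lower and 1 higher passed the unadjusted threshold (3.79% and 4.65%), and the median was -0.19. GREB1, an estrogen receptor cofactor that progestin also induces in these cells, rose 5.16-fold and 3.26-fold (interaction -0.66 ± 0.24, adjusted p = 0.856; 10 libraries adjusted p = 0.0652). The EGFR family and ligand list also holds KITLG, the ligand of KIT and not of an EGFR family receptor. KITLG was the 1 called gene of its 16, lower, against 0.0338% of all genes. Past the unadjusted threshold were 1 higher and 2 lower (2.27% and 1.79% of all genes). Without the pair 1 was called higher and 2 lower (0.306% and 0.473% of all genes), and 3 and 5 passed the unadjusted threshold (4.65% and 3.79%). EGF, a ligand, rose 4.64-fold in siCT and 3.02-fold in siPRMT1 cells (interaction -0.62 ± 0.37, adjusted p = 1.000).

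No gene of DNA replication was called over 12 or over 10 libraries, but 38 of 40 had an interaction below 0. Of the 40, 12 lower and 0 higher passed the unadjusted threshold (15 and 0 without the pair, 5 and 0 with library totals alone). Over all genes the share lower was 1.79%, 3.79% and 2.03% in the same order, and 44% of all genes were below 0 over 12 libraries. The list's median was -0.36 beside 0.040 over all genes, -0.32 beside 0.042 without the pair, and -0.48 beside -0.10 with library totals alone. The median R5020 effect of the list was 0.68 in siCT and 0.26 in siPRMT1 cells, with a median depletion effect of -0.077 in ethanol. MCM5, a subunit of the replicative helicase, rose from 8.83, 6.22 and 5.74 to 18.7, 20.6 and 19.4 CPM in siCT and from 6.12, 6.33 and 6.01 to 10.0, 9.77 and 10.6 CPM in siPRMT1 cells (interaction -0.77 ± 0.23, adjusted p = 0.552). E2F2, an activating E2F transcription factor, had log2 changes of 0.68 in siCT, called, and -0.14 in siPRMT1 cells, not called (interaction -0.82 ± 0.23, adjusted p = 0.455). CHAF1A, a histone chaperone of replicating chromatin, had 0.85, called, and 0.14, not called (interaction -0.70 ± 0.20, adjusted p = 0.466). GINS2, another helicase subunit, rose 6.57-fold and 5.68-fold, and CCNE2, cyclin E2, 2.82-fold and 2.06-fold, with interactions of -0.21 ± 0.33 and -0.45 ± 0.25.

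Of 23 adhesion and desmosome genes PKP2 was the 1 called, higher, against 0.0451% of all genes. Past the unadjusted threshold were 1 higher and 0 lower (2.27% and 1.79% of all genes). The median of 0.21 was 0.11 without the pair and 0.0019 with library totals alone, beside medians of all genes of 0.040, 0.042 and -0.10. In the same order 19, 15 and 12 of the 23 were above 0, against 56%, 57.1% and 33.1% of all genes. CD44, the hyaluronan receptor, rose 2.86-fold from 53.4 ± 25.6 CPM in siCT and 4.45-fold from 19.1 ± 0.447 CPM in siPRMT1 cells (interaction 0.64 ± 0.40, adjusted p = 1.000). AMIGO2, a leucine-rich repeat adhesion protein, fell 22.02-fold and 13.8-fold to levels of 2.28 ± 0.221 and 2.01 ± 0.248 CPM (interaction 0.67 ± 0.32, adjusted p = 1.000).

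Of 34 interferon response genes 0 were called, and 3 higher and 0 lower passed the unadjusted threshold, against 2.27% and 1.79% of all genes (7 and 0 without the pair, against 4.65% and 3.79%). An interaction above 0 was found for 31 of the 34, against 56% of all genes, with a median of 0.21 beside 0.040. With library totals alone the median was 0.066 beside -0.10, and 23 were above 0, against 33.1% of all genes. IFI44L, an interferon-induced gene, fell 2.62-fold in siCT and 1.496-fold in siPRMT1 cells (interaction 0.81 ± 0.24, adjusted p = 0.510). DDX58, the RNA sensor RIG-I, had log2 changes of -0.44 and 0.17, neither called (interaction 0.61 ± 0.20, adjusted p = 0.654). Of 19 hypoxia and glycolysis genes 0 were called and 3 higher and 0 lower passed the unadjusted threshold (2.27% and 1.79% of all genes); without the pair 2 were called higher and 0 lower (0.306% and 0.473%). PFKFB3, which makes the activator of phosphofructokinase, rose 3.97-fold from 34.6 ± 2.37 CPM in siCT and 6.32-fold from 15.4 ± 0.650 CPM in siPRMT1 cells (interaction 0.67 ± 0.17, adjusted p = 0.375; 10 libraries adjusted p = 0.0315). On the CPM scale PFKFB3 gained 103 in siCT and 81.9 in siPRMT1 cells, so its order was reversed. ADM, adrenomedullin, stood at 51.9 ± 27.9 and 30.2 ± 12.5 CPM in siCT and 9.16 ± 0.666 and 11.2 ± 0.931 CPM in siPRMT1 cells (interaction 1.07 ± 0.46, adjusted p = 1.000; 10 libraries adjusted p = 0.0181). BNIP3, a mitophagy receptor, rose 2.70-fold and 3.10-fold.

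**Figure D5:**
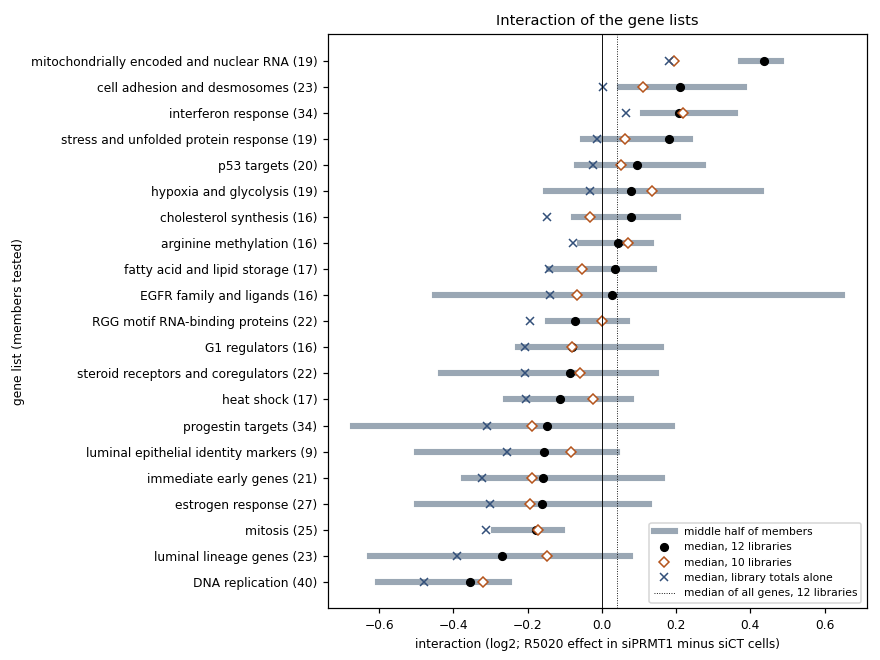
Interaction of the members of 21 gene lists (rows, number of members tested in brackets) on the log2 scale: bars run from the lower to the upper quartile of the members, circles are medians over 12 libraries, diamonds medians over 10 libraries and crosses medians with library totals alone; the dotted line is the median of all genes, 0.040. DNA replication has the lowest median, -0.36, and mitochondrially encoded and nuclear RNA the highest, 0.44 over 12 libraries and 0.19 over the 10 libraries without the pair.

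None of 21 immediate early genes or 16 G1 regulators was called over 12 libraries; 1 higher and 4 lower, and 0 higher and 2 lower, passed the unadjusted threshold, against 2.27% higher and 1.79% lower of all genes. Without the pair 3 and 2 were called lower and none higher, against 0.473% and 0.306% of all genes. KLF4, a zinc finger transcription factor, rose from 32.6 ± 1.31 to 97.7 ± 5.29 CPM in siCT and from 34.7 ± 0.966 to 144 ± 3.43 CPM in siPRMT1 cells (interaction 0.47 ± 0.17, adjusted p = 0.806). IER2, an immediate early gene, had no called change in siCT cells (log2 -0.084, adjusted p = 0.834) and fell 1.73-fold in siPRMT1 cells (interaction -0.71 ± 0.24, adjusted p = 0.767). MYC, the growth-promoting transcription factor, rose 1.59-fold in siCT cells, and its log2 change of 0.19 in siPRMT1 cells was not called (interaction -0.48 ± 0.18, adjusted p = 0.886; 10 libraries adjusted p = 0.0459). CDKN1A, which encodes the inhibitor p21, was called as a rise in siPRMT1 cells (2.24-fold) and not in siCT cells (1.501-fold, adjusted p = 0.0900), but the difference itself was not called (interaction 0.58 ± 0.29, adjusted p = 1.000).

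Some strongly induced genes had nearly equal folds under both siRNAs. CCND1, cyclin D1, rose from 47.3, 39.1 and 33.3 to 103, 134 and 123 CPM in siCT and from 57.2, 68.1 and 66.3 to 205, 187 and 186 CPM in siPRMT1 cells. Its fold was 3.01 and 3.01, with a 95% interval of the interaction from -0.49 to 0.49, although its level was higher in depleted cells in ethanol (0.68 log2 units, adjusted p = 0.00783) and with R5020 (0.68, adjusted p = 0.00948). PKP1, plakophilin 1, a relative of PKP2, rose 25.2-fold and 23.8-fold, with an interval of -1.20 to 1.04 that takes in differences of about 1 log2 unit in either direction. The interval of CCND1 lies within 1 log2 unit of no difference, and that of PKP1 does not.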

How the data were processed

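Per the labels' protocols, TRIzol was used for RNA extraction and the Lexogen SENSE mRNA kit for the libraries. The authors deposited a table of raw read counts per gene symbol for each of the 12 libraries, listing 55765 genes. Bowtie2 2.3.2.2, HTSeq 0.9.1, DESeq2 and the build hg19 are named in the submitters' processing notes; the notes state no roles, and the annotation and strand setting were not given in the sources used, so reads of overlapping or antisense genes cannot be told apart. The deposited table of the authors' own comparisons holds no interaction and was not used here.

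Counts were fitted with edgeR 4.0.16 in R 4.3.3: filterByExpr over the 4 groups (17727 genes left), TMM scaling, 1 mean per group over all 12 libraries and the quasi-likelihood test, with Benjamini-Hochberg adjustment over all genes tested. Calls were made at an adjusted p under 0.05. Standard errors are the unshrunk estimate over the square root of F. CPM are after TMM scaling. Groups come from the siRNA and treatment labels. The spread behind each p-value is that between these libraries, which had 26783525 to 34120937 counts each. For each gene 1 spread was fitted over all 4 groups together, so it is not that of any single group. The groups' own biological coefficients of variation ran from 0.0464 (siPRMT1 ethanol) to 0.324 (siCT ethanol). The fit was also run on simulated counts with known changes. Those libraries were drawn independently, so the run does not cover siCT libraries that run together, and its outcome is not reported here.

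The comparison, the 24 gene lists and the named genes were chosen with earlier results of these data known. Named are PRMT1, PGR, ESR1 and SGK1; every gene called; the 10 highest and 10 lowest of those called only without the pair of siCT libraries that stand apart (unadjusted p under 0.05 over 12 libraries, same sign, at least 5 CPM, no clone, antisense or readthrough names); and of each list up to 3 members by p and 2 by average R5020 effect. Some list members so named, among them those with 0 counts in a group, are not described, and a gene and a list are not reported here. Alternatives were DESeq2's size factors, library totals alone, no filter, the DESeq2 1.42.0 Wald test, voom with sample quality weights (limma 3.58.1), robust fitting, mitochondrially encoded genes left out, the pair left out, each library left out in turn and the replicate number as a block. The deviations of same-numbered libraries from their group means were checked over 18 pairs: 4 had a correlation over 0.1 (range -0.84 to 0.52), so the numbers were not taken to pair the libraries. Between the siCT groups, libraries of unlike number ran together. These were ethanol replicates 1, 2 and 3 with R5020 replicates 2, 3 and 1 (r = 0.772, 0.797 and 0.924). No fit paired the libraries in that way, and whether they share a source was not tested. RefSeq promoter windows (GRCh38.p14) were matched by symbol, with chromosome 8 left out for the called genes and kept for the windows over all genes.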

Additional observations from a re-analysis of the deposited data

Results flagged for a closer look

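The R5020 effect differed between siPRMT1 and siCT cells, by the test of the difference itself (edgeR's quasi-likelihood test of the interaction, adjusted p under 0.05), for 14 of 17727 genes. The interaction of genes that fell further in siPRMT1 cells was -1.73 for MYB and -1.68 for KITLG. For genes that rose less on the log2 scale it was -2.80 for NXPH3, -1.70 for ZBTB7C, -1.34 for AC093323.3 and -1.18 for SOX4. It was 4.34 for PCDH17, 1.76 for PKP2, 1.60 for RASSF5 and 1.38 for FAM43A, whose fitted R5020 effects had opposite signs under the 2 siRNAs. It was 1.61 for MTSS1, 1.53 for C14orf182 and 1.09 for SRGAP1, which rose further in siPRMT1 cells, and 1.36 for L3MBTL3, which fell less there. PCDH17 rests on 10 to 56 counts per group, and NXPH3 on 11 counts in siCT ethanol.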

How the results depend on the processing

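All 14 called genes kept their direction in each of the 9 alternatives and with each of the 12 libraries left out in turn. These fits reuse the same libraries, so the kept directions are no independent support. The number called higher and lower (8 and 6) was 1 and 2 with library totals alone, 14 and 15 with no filter on low counts, 33 and 56 with the DESeq2 Wald test, 30 and 35 with voom quality weights, 55 and 85 without the pair of siCT libraries that stand apart, and 0 to 10 and 0 to 23 with 1 library left out. It was unchanged with DESeq2's size factors and without mitochondrially encoded genes, and 6 and 6 with robust fitting. Of the 14, the number still called was 14 with DESeq2's size factors, the DESeq2 Wald test, without mitochondrially encoded genes and without the pair, 13 with no filter, 12 with robust fitting, 11 with voom and 2 with library totals alone. With the replicate number as a block 0 higher and 0 lower were called by edgeR, the adjusted p of the 14 genes was 0.0920 to 0.198, and 594 genes had an unadjusted p under 0.05. Of the 12 libraries, 2 correlated best with a library of their own number. The block followed the printed numbers, under which the siCT libraries that ran together fall in different blocks. The median interaction of the genes that rose with R5020 (0.176) was 0.0474 with library totals alone, 0.132 with voom, 0.136 without the pair, 0.106 with no minimum fold, 0.280 with a minimum of 2 log2 units and 0.00557 to 0.183 with 1 library left out. That of the genes that fell, toward the fall (0.0887), was 0.230 with library totals alone and -0.144 to 0.191 with 1 library left out. Genes near 0 changed sign: CCND1 stood at -0.020 with DESeq2's size factors, -0.13 with library totals alone, -0.015 with no filter, -0.018 with the DESeq2 Wald test, -0.019 with voom and -0.14 to 0.085 with 1 library left out, and PKP1 at -0.30 to 0.10 with 1 library left out. The causes were not tested. With a median standard error of 0.332 (0.233 without the pair), the smallest difference called was 1.09 log2 units.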

Other observations

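Other gene groups had no called member over 12 libraries. Of 25 mitosis genes 2 lower and 0 higher passed the unadjusted threshold (background 1.79% and 2.27%), 22 had an interaction below 0 (44% of all genes), and the median was -0.18 beside 0.040 over all genes (-0.17 beside 0.042 without the pair). Of 20 p53 targets 0 passed it in either direction, with a median of 0.10; without the pair 4 higher and 1 lower passed it (background 4.65% and 3.79%), with a median of 0.050. TNFRSF10B, a death receptor for TRAIL, was called higher without the pair: it stood at 46.6 ± 20.8 and 59.1 ± 17.1 CPM in siCT and at 25.1 ± 0.555 and 53.4 ± 0.874 CPM in siPRMT1 cells (SD, n = 3; interaction 0.74 ± 0.37, adjusted p = 1.000, and 0.0375 over 10 libraries, by edgeR). Of 17 heat shock genes and 22 RNA-binding proteins with RGG motifs, the motif that PRMT1 methylates, 0 passed the unadjusted threshold in either direction, with medians of -0.11 and -0.072. Without the pair 2 higher and 3 lower of the heat shock genes and 1 higher and 0 lower of the RNA-binding proteins passed it, with medians of -0.025 and 0.00076, beside 0.042 over all genes. IER3, an early stress-response gene, stood at 60.3 ± 22.8 and 88.8 ± 26.4 CPM in siCT and at 187 ± 6.50 and 139 ± 17.4 CPM in siPRMT1 cells (interaction -0.99 ± 0.36, adjusted p = 0.847, and 0.0230 over 10 libraries).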
